A study of Mus musculus with 15 samples.

Results

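Collagen chains were followed across 15 RNA-seq libraries of glioma-derived and brain endothelial mouse cells. Members were all protein-coding genes of the deposited count table whose symbol is Col, a type number, a and a chain number, which gave 44 of 49585 genes (21973 of them protein coding). They comprised 11 fibrillar chains, 6 type IV chains, 6 type VI chains, 9 FACIT chains (fibril-associated collagens with interrupted helices) and 12 others. The 5 groups held 3 libraries each. Sertraline-treated TDECs were tumor-derived endothelial cells that received 5 μM sertraline, an antidepressant, for 24 h after 5 days of differentiation. The 005 cells were mouse glioma stem cells, carrying a C57BL/6 strain label, and were the starting point of the time course. TDEC day 2 and untreated TDECs were the same line after transfer to EGM-2, an endothelial growth medium, at 1% oxygen. The labels give no day for the untreated TDECs, which were taken as the day 5 cells of the study. If so, the treated cells were collected later. MBMECs were commercial mouse brain microvascular endothelial cells, grown in another medium with no oxygen level stated, so that medium, oxygen and cell type cannot be told apart in comparisons with them. The titles of the sertraline and MBMEC libraries lack a prefix that the other 005 and TDEC titles carry. A separate batch cannot be told apart from the drug, nor from cell type in comparisons with MBMECs.

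Collagens are secreted or membrane-bound proteins whose chains wind around each other into a helix. Fibrillar chains build ropes in connective tissue, FACITs sit on the surface of those ropes, type VI forms beaded filaments, and type IV forms the sheet-like network of basement membranes, which underlies every blood vessel. In the brain, collagen is largely restricted to vessels and meninges, and glioma vessels are surrounded by a basement membrane that endothelial cells and their neighbours lay down together. Chains are hydroxylated, folded and cross-linked by a set of dedicated enzymes, several of which use oxygen as a substrate.

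Several type IV genes stand head to head. In the annotation, Col4a1 (minus strand) and Col4a2 (plus strand) start from the same stretch of chromosome 8 and overlap there by 22 bases, chr8:11312805-11312826 (GRCm38.p6). Col4a4 and Col4a3 on chromosome 1 are divergent with 71 bases between them, and Col4a6 and Col4a5 on chromosome X are divergent with 1308 bases between them. RefSeq windows of 250 bases upstream of the annotated start were at hand for 35 of the 44 genes. The shared Col4a1 and Col4a2 start is shown because both chains are read from it, Col5a1 and Col11a2 because they were higher in TDECs than in 005 cells and their windows hold the core of a hypoxia response element, Col16a1 because MBMECs had no count of it, and Col8a1 and Col13a1 because they were high in MBMECs. Capitals mark matches, on either strand, to ACGTG (hypoxia response element core), TGANTCA (AP-1), GGGCGG (GC box) and CCAAT. In the windows shown, matches to different motifs did not overlap.
Col4a1 and Col4a2 shared start, plus strand: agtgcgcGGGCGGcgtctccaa
Col5a1, chr2:27886175-27886424, plus strand: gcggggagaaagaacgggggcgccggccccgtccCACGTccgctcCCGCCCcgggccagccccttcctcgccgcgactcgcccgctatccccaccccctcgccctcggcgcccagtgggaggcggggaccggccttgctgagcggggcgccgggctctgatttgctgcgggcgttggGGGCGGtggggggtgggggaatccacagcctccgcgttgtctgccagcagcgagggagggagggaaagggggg
Col11a2, chr17:34038888-34039137, plus strand: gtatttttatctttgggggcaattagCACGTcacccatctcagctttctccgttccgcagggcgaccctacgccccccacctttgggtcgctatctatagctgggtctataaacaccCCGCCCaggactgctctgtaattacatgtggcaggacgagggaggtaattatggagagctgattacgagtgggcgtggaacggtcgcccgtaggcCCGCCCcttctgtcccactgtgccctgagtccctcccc
Col16a1, chr4:130047590-130047839, plus strand: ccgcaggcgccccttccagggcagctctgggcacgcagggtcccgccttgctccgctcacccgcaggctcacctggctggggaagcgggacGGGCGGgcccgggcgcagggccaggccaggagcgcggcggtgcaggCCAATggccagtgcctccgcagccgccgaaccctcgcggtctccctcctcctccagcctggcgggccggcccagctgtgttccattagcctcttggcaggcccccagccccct
Col8a1, chr16:57754738-57754987, minus strand: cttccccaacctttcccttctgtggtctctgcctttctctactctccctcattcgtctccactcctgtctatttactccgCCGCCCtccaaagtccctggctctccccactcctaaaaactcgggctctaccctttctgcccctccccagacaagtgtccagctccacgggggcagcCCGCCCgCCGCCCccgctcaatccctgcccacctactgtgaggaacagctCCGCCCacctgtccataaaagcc
Col13a1, chr10:61979109-61979358, minus strand: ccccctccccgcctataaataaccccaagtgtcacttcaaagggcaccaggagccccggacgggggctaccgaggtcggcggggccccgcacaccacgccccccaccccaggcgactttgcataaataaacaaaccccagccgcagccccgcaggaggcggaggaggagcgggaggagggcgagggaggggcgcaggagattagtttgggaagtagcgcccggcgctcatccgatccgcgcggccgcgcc
ACGTG occurred upstream of 5 of the 35 collagen genes (Col1a2, Col4a4, Col5a1, Col6a6 and Col11a2), against 18.5% of the 27025 genes with a window. TGANTCA occurred upstream of 1 (Col6a1), against 7.82%. GGGCGG occurred in 21, against 35.4%, and CCAAT in 13, against 37.5%. These are letters in a window, and they say nothing about binding.

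Libraries held 11283680 to 17093061 counts assigned to genes. Within a group, most pairs of libraries differed little, but 005 replicate 3, TDEC day 2 replicate 3 and sertraline replicate 2 stood apart from the others of their group (chi-square per gene of 6.97 to 11.7 in their pairs, against 2.15 to 4.94 in the other pairs). MBMECs carried endothelial markers at a summed 9812 to 10030 CPM (counts scaled to library size with TMM factors over all 15 libraries), with 15 of 15 markers at 1 CPM or more. The same list summed to 8.95 to 17.7 CPM over the libraries of the other 4 groups, and in untreated TDECs it summed to 9.61 to 11.8 CPM, with 4 of 15 markers at 1 CPM or more and Cdh5, the endothelial cadherin, at 0 to 0.251 CPM. Of 12 fibroblast markers, 3 reached 1 CPM in MBMECs (Fbln2 at 94.1 to 97.8 CPM, Mmp2 at 14.9 to 22.3 CPM and Pdgfra at 11.7 to 13.2 CPM), while the defining Dcn and Lum had no count there. The list summed to 45.0 to 49.1 CPM in TDECs and 122 to 133 CPM in MBMECs. In bulk RNA, fewer cells of a type and less RNA per cell cannot be told apart. The labels do not say that libraries of a group came from separate cultures, so p-values measure the spread between these libraries, which may be technical.

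Collagen transcripts took up a small share of all counts, largest in MBMECs. The share was 0.104% ± 0.0017 in 005 cells, 0.121% ± 0.00379 in TDEC day 2 and 0.144% ± 0.00535 in TDECs (SD, n = 3 each), and these 3 groups did not overlap. It was 0.161% ± 0.00407 in sertraline-treated TDECs and 0.563% ± 0.025 in MBMECs. By the mean of the group, 28 chains reached 1 CPM in 005 cells, 27 in TDEC day 2, 27 in TDECs, 25 in sertraline-treated TDECs and 15 in MBMECs. At 10 CPM or more stood 11 chains in 005 cells, 13 in TDEC day 2, 16 in TDECs, 14 in sertraline-treated TDECs and 9 in MBMECs. Of the 44 chains, 34 had at least 10 counts in a library. The other 10 were barely read anywhere. Their largest counts in a library were 9 for Col14a1, 7 for Col17a1, Col19a1 and Col24a1, 6 for Col15a1, 4 for Col10a1, 3 for Col6a5 and 2 for Col1a2, Col6a6 and Col8a2.

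**Figure D1:**
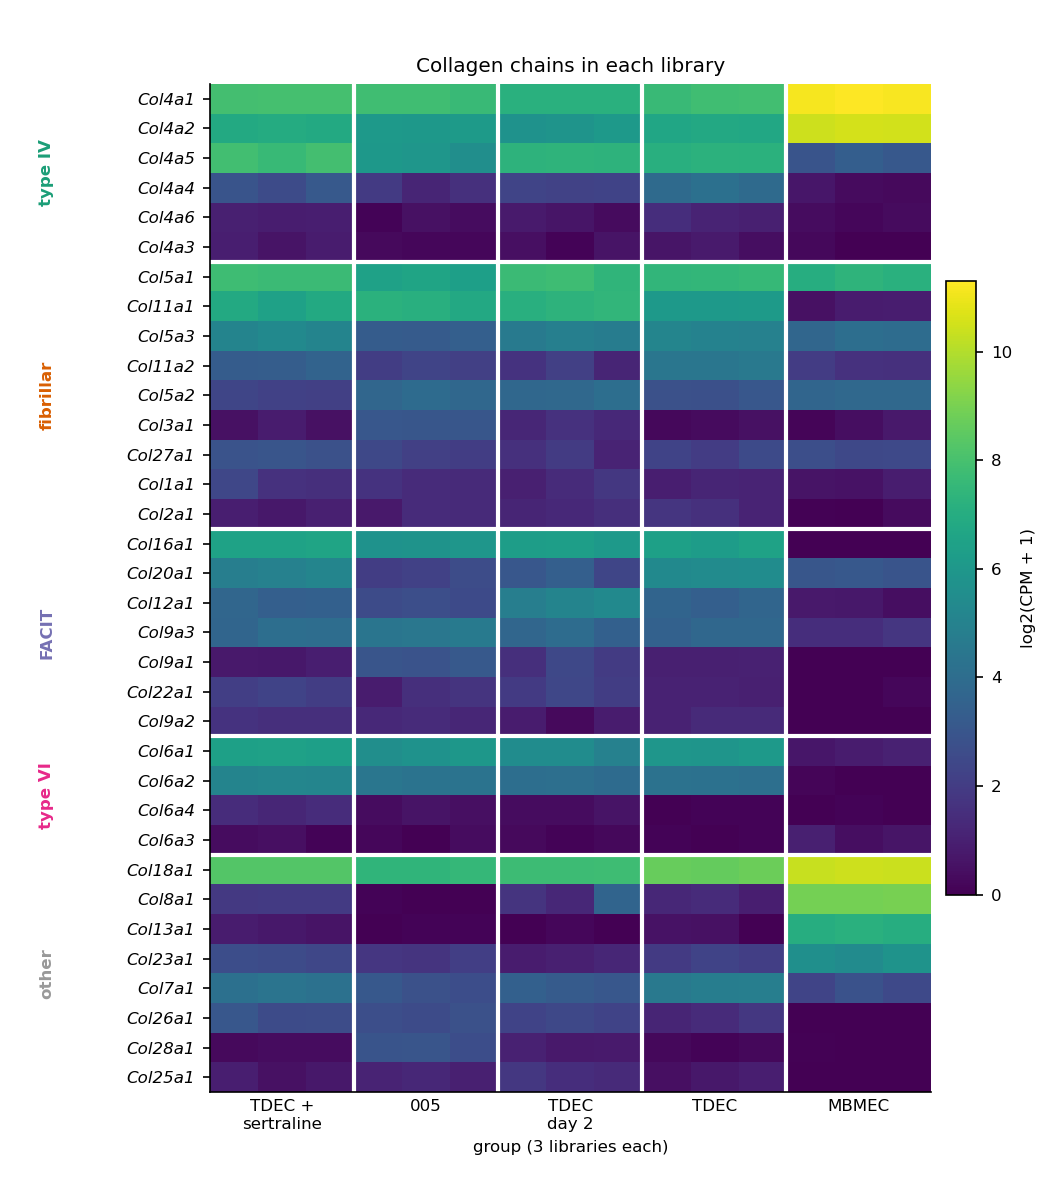
Level of the 34 collagen chains with at least 10 counts in a library, as log2(CPM + 1) by colour, with one column per library (3 per group) and rows ordered by class. MBMECs show a few bright rows (Col4a1, Col4a2, Col18a1, Col8a1, Col13a1) and dark FACIT and type VI rows, while the glioma-derived groups are spread over all 5 classes.

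Classes were compared per length, as CPM per kb of annotated exon, because collagen transcripts differ in length. Type IV made up 33.2% ± 1.21 of the collagen CPM per kb in TDECs and 63.2% ± 0.569 in MBMECs (SD, n = 3 each). The fibrillar class made up 17.1% ± 0.04 in TDECs and 2.49% ± 0.137 in MBMECs. FACITs made up 12.1% ± 0.246 in TDECs and 0.235% ± 0.00429 in MBMECs, and type VI made up 7.77% ± 0.316 in TDECs and 0.0291% ± 0.00429 in MBMECs. Along the time course the fibrillar share was 19.1% in 005 cells, 26.6% in TDEC day 2 and 17.1% in TDECs, and the mixed class of others was 20.8% in 005 cells, 21.1% in TDEC day 2 and 29.9% in TDECs. The chain with the highest level per kb was Col4a1 in 005 cells (29.3 CPM per kb), Col18a1 in TDEC day 2 (30.7), TDECs (58.7) and sertraline-treated TDECs (44.0), and Col4a1 in MBMECs (318).

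**Figure D2:**
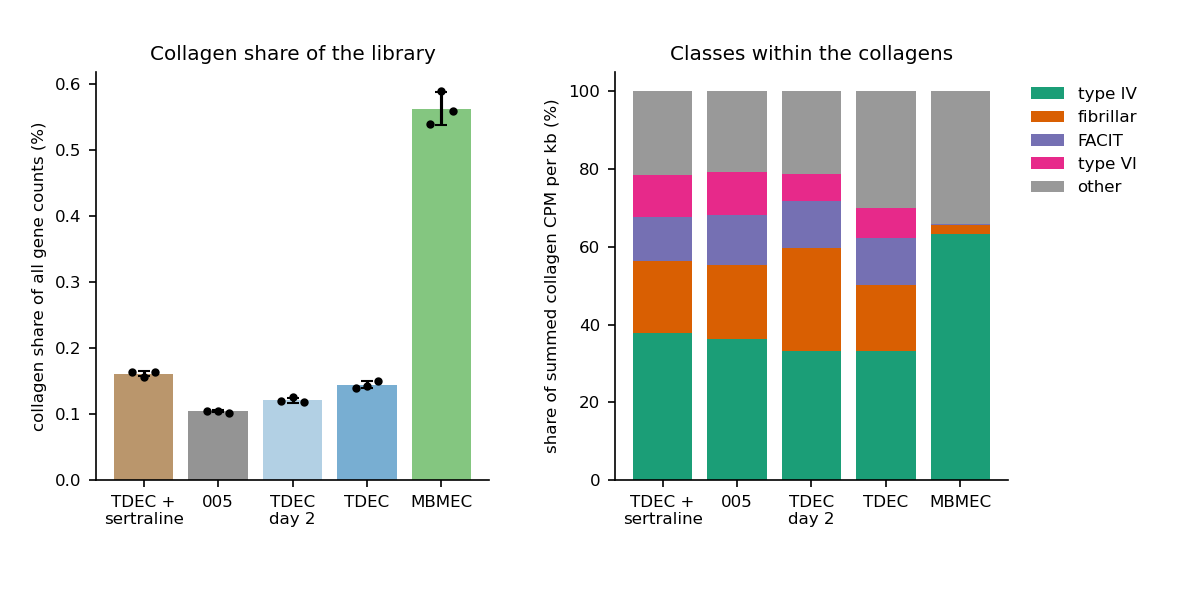
Left, percent of all gene counts that fell on collagen chains, as mean with SD (bars) and the 3 libraries of each group (points). Right, mean share of the 5 collagen classes in the summed collagen CPM per kb. Type IV takes 63.2% in MBMECs and 33.1% to 37.9% in the other groups.

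Type IV chains differed in their course. Col4a5, a chain of kidney and lung basement membranes, stood at 64.7, 59.3 and 46.4 CPM in 005 cells, at 155, 162 and 157 CPM in TDEC day 2 and at 140, 150 and 146 CPM in TDECs. All TDEC libraries lay above all 005 libraries, and the level was reached by day 2. The fold change was 1.46 ± 0.11 on the log2 scale for TDEC day 2 over 005 (log2 fold change ± SE, edgeR, adjusted p = 3.2e-06) and 1.34 ± 0.10 for TDECs over 005 (adjusted p = 1.5e-07). Col4a4, its partner in those membranes, stood at 2.74, 1.25 and 1.93 CPM in 005 cells, 4.02, 3.66 and 3.82 CPM in TDEC day 2 and 14.1, 17.0 and 13.9 CPM in TDECs. TDEC day 2 lay above 005 without overlap but under 2-fold (0.93 ± 0.29, adjusted p = 0.027; 1.25 and called without 005 replicate 1), and the step from day 2 to TDECs was 1.96 ± 0.16 (adjusted p = 1e-06). Col4a3, the chain that joins these partners and starts beside Col4a4, had at most 13 counts in any library and was not tested. Its exons share 563 bases with an opposite-strand transcript, C430014B12Rik, which had up to 341 counts. Col4a6 was low throughout, at 0.0722, 0.441 and 0.287 CPM in 005 cells, 0.759, 0.574 and 0.249 CPM in TDEC day 2 and 1.82, 1.17 and 0.993 CPM in TDECs (2.25 ± 0.51 for TDECs against 005, adjusted p = 0.002), and its head-to-head neighbour Col4a5 had 76.9 to 147 counts per Col4a6 count in the TDEC libraries.

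The main vessel chains, Col4a1 and Col4a2, did not follow that pattern. Col4a1 stood at 227, 228 and 200 CPM in 005 cells, 142, 142 and 145 CPM in TDEC day 2 and 202, 225 and 237 CPM in TDECs. It was thus lowest on day 2, by under 2-fold (−0.63 ± 0.08 against 005, adjusted p = 9.6e-05), and TDECs overlapped 005 cells (0.002 ± 0.07, adjusted p = 0.99). Col4a2 stood at 68.3, 64.9 and 70.7 CPM in 005 cells, 52.3, 56.5 and 68.1 CPM in TDEC day 2 and 103, 112 and 109 CPM in TDECs, the last 0.65 ± 0.07 above 005 (adjusted p = 2.8e-06) and below the 2-fold threshold. The read counts of the pair therefore came closer together, with 2.83 to 3.51 Col4a1 reads per Col4a2 read in 005 cells, 2.12 to 2.72 in TDEC day 2 and 1.96 to 2.17 in TDECs. The ratio was 1.59 to 1.64 in MBMECs, below every TDEC library. Type IV protomers of these chains hold more α1 than α2. Exons of Col4a2 share 43 bases with an opposite-strand transcript, Gm15419, which had up to 812 counts, and as the strand setting of the counting is not stated, reads of the overlap cannot be assigned.

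Fibrillar chains were dominated by types V and XI, which start and limit the width of fibrils. Col5a1 stood at 87.9, 96.3 and 81.7 CPM in 005 cells, 208, 216 and 168 CPM in TDEC day 2 and 171, 179 and 189 CPM in TDECs. Its exons share 113 bases with the opposite-strand transcript Gm13372, which had up to 161 counts. Col5a3 stood at 8.74, 8.37 and 9.67 CPM in 005 cells, 23.9, 28.4 and 25.8 CPM in TDEC day 2 and 33.8, 31.2 and 30.4 CPM in TDECs. Both rose by day 2 (1.14 ± 0.11, adjusted p = 1.3e-05, and 1.52 ± 0.13, adjusted p = 7.1e-06). Against 005 cells, Col5a3 was 1.82 ± 0.11 higher in TDECs (adjusted p = 2e-08), and Col5a1 was 1.00 ± 0.07 higher (adjusted p = 1.1e-07), so close to the 2-fold threshold that it was no longer called without 005 replicate 3 (0.95), without 005 replicate 1 (0.99), without TDEC replicate 3 (0.96) or with library totals in place of TMM factors (0.88). Col5a2, the second chain of type V, went the other way: at 12.1, 14.4 and 12.8 CPM in 005 cells and 12.8, 13.1 and 16.1 CPM in TDEC day 2, it stood at 6.01, 5.76 and 7.28 CPM in TDECs (−1.05 ± 0.15 against 005, adjusted p = 4.5e-05). Without 005 replicate 2 or TDEC replicate 2 this was −0.99 and under 2-fold.

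Type XI showed a similar divergence between its chains. Col11a1 stood at 146, 138 and 110 CPM in 005 cells, 138, 155 and 173 CPM in TDEC day 2 and 65.3, 66.2 and 70.7 CPM in TDECs, a fall after day 2 (−1.21 ± 0.08, adjusted p = 3.1e-07). Col11a2 stood at 3.10, 3.97 and 3.37 CPM in 005 cells, 2.13, 3.37 and 1.25 CPM in TDEC day 2 and 20.5, 20.8 and 22.5 CPM in TDECs, a rise after day 2 (3.20 ± 0.24, adjusted p = 5.4e-07). The ratio of Col5a1 to Col11a1 reads was 0.603 to 0.740 in 005 cells, 0.975 to 1.51 in TDEC day 2 and 2.62 to 2.71 in TDECs. These groups did not overlap. Col3a1, a chain of vessel walls and other soft tissue, stood at 7.37, 7.2 and 7.09 CPM in 005 cells, 1.29, 2.01 and 1.5 CPM in TDEC day 2 and 0.182, 0.251 and 0.414 CPM in TDECs (−4.63 ± 0.29 for TDECs against 005, adjusted p = 3.5e-08). Of type I collagen, Col1a1 had 10 to 31 counts per library in these 9 libraries and Col1a2, its obligatory partner in the main form of the protein, 0 to 2. Col2a1 (0.722 to 2.37 CPM) and Col27a1 (1.16 to 4.88 CPM) did not pass both thresholds along the time course.

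**Figure D3:**
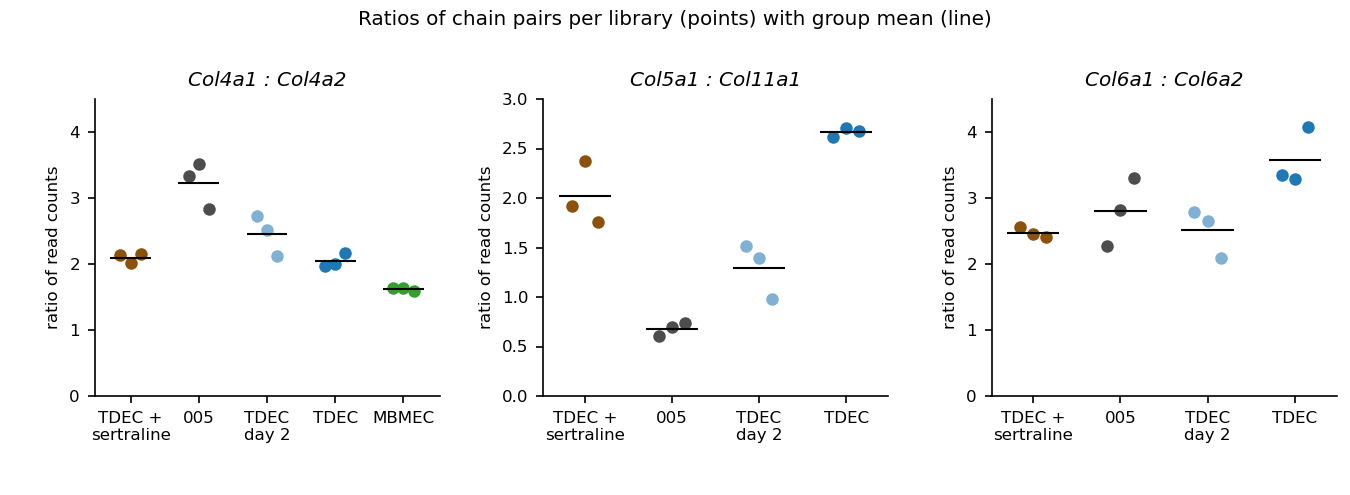
Ratio of read counts between chain pairs in each library (points), with the group mean (line), for Col4a1 to Col4a2, Col5a1 to Col11a1 and Col6a1 to Col6a2. MBMECs are drawn only for the first pair, since Col11a1 and Col6a2 had at most 13 counts there. The Col4a1 to Col4a2 ratio is 2.83 to 3.51 in 005 cells and 1.59 to 1.64 in MBMECs, and the Col5a1 to Col11a1 ratio is 0.603 to 0.740 in 005 cells and 2.62 to 2.71 in TDECs.

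Among the FACITs, Col12a1 and Col20a1 peaked at different times. Col12a1, found on fibrils of tendon and stroma, was 5.06, 5.66 and 4.80 CPM in 005 cells, 27.2, 32.9 and 39.5 CPM in TDEC day 2 and 11.6, 9.86 and 11.8 CPM in TDECs. It rose by day 2 (2.66 ± 0.17, adjusted p = 7.1e-07) and fell after it (−1.60 ± 0.15, adjusted p = 3.1e-06). Col20a1 was 3.10, 3.6 and 5.16 CPM in 005 cells, 7.36, 9.76 and 4.07 CPM in TDEC day 2 and 39.5, 43.3 and 44.5 CPM in TDECs, and rose after day 2 (2.56 ± 0.21, adjusted p = 1.2e-06). TDEC day 2 overlapped 005 cells (0.82 ± 0.31, adjusted p = 0.054) through the replicates 3, which stood apart. It was called higher on day 2 without 005 replicate 3 (1.09, adjusted p = 0.039), without TDEC day 2 replicate 3 (1.10, adjusted p = 0.005) and without both (1.36, adjusted p = 1.5e-06). Its exons share 79 bases with the same-strand transcript 9230112E08Rik, which had up to 150 counts. Col16a1, one of the most read chains, was 53.1, 54.3 and 59.6 CPM in 005 cells, 77.0, 79.7 and 68.7 CPM in TDEC day 2 and 85.0, 75.3 and 88.8 CPM in TDECs, all within 2-fold. The type IX chains decorate cartilage fibrils. Col9a1 was 6.93, 6.39 and 7.88 CPM in 005 cells, 1.90, 4.38 and 2.91 CPM in TDEC day 2 and 1.00, 1.00 and 1.07 CPM in TDECs (−2.79 ± 0.22 for TDECs against 005, adjusted p = 3.4e-07). Col9a3 was 20, 21.4 and 23.5 CPM in 005 cells, 12.4, 14.9 and 10.1 CPM in TDEC day 2 and 10.3, 12.7 and 12.5 CPM in TDECs (−0.88 ± 0.12 for TDECs against 005, adjusted p = 4.2e-05, under 2-fold). Col9a2 was 1.29 to 1.62 CPM in 005 cells, 0.215 to 0.835 CPM in TDEC day 2 and 1.09 to 1.57 CPM in TDECs, lowest on day 2 without overlap, and neither step passed the test (−1.24 ± 0.46, adjusted p = 0.052, and 1.15 ± 0.47, adjusted p = 0.05). Col22a1, known from muscle-tendon junctions, was 0.794, 1.84 and 2.29 CPM in 005 cells, 2.81, 4.31 and 3.16 CPM in TDEC day 2 and 1.09, 1.09 and 0.993 CPM in TDECs. Its call against 005 (1.04 ± 0.36, adjusted p = 0.04) was lost without 005 replicate 1 (0.72, adjusted p = 0.12), without 005 replicate 2 (1.13, adjusted p = 0.072) and without TDEC day 2 replicate 2 (0.86, adjusted p = 0.13).

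Type VI was carried by Col6a1 and Col6a2 and stayed within 2-fold along the time course. Col6a1 was 46.2, 52.4 and 62.1 CPM in 005 cells, 44.4, 44.3 and 30.2 CPM in TDEC day 2 and 61.0, 57.6 and 66.8 CPM in TDECs, and Col6a2 was 20.3, 18.6 and 18.8 CPM in 005 cells, 15.9, 16.6 and 14.4 CPM in TDEC day 2 and 18.2, 17.5 and 16.4 CPM in TDECs. Col6a1 was −0.45 ± 0.15 in TDEC day 2 against 005 (adjusted p = 0.036) and 0.62 ± 0.13 in TDECs against TDEC day 2 (adjusted p = 0.0015), with TDEC day 2 replicate 3 the lowest library. Col6a3, which completes the usual type VI trimer, had 0 to 4 counts in each of these 9 libraries, and Col6a4 0 to 7.

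Of the others, Col18a1, the basement membrane proteoglycan whose tail releases endostatin, was 168, 166 and 180 CPM in 005 cells, 213, 214 and 218 CPM in TDEC day 2 and 412, 395 and 429 CPM in TDECs. TDECs were 1.25 ± 0.06 above 005 (adjusted p = 3.5e-09). Its gene span overlaps that of Slc19a1 on the opposite strand by 8825 bases, with 0 bases of shared exon, and Slc19a1 had at most 650 counts. Col7a1, of the anchoring fibrils of skin, was 7.58, 5.95 and 5.30 CPM in 005 cells, 9.95, 8.47 and 7.48 CPM in TDEC day 2 and 22.7, 26.5 and 27.4 CPM in TDECs, a rise after day 2 (1.55 ± 0.14, adjusted p = 2.2e-06). Col28a1, known from peripheral nerve, was 6.57, 6.90 and 5.30 CPM in 005 cells, 1.06, 0.718 and 0.748 CPM in TDEC day 2 and 0.182, 0.0835 and 0.166 CPM in TDECs (−5.37 ± 0.35 for TDECs against 005, adjusted p = 5.3e-08). Of the membrane-anchored chains, Col23a1 had 2.46, 2.28 and 3.29 CPM in 005 cells, 0.835, 1.00 and 1.33 CPM in TDEC day 2 and 2.73, 3.76 and 3.31 CPM in TDECs. It was lower on day 2 than in 005 cells (−1.36 ± 0.32, adjusted p = 0.0066) and higher in TDECs than on day 2 (1.62 ± 0.30, adjusted p = 0.00072). Col25a1 had 1.16, 1.40 and 1.00 CPM in 005 cells, 2.58, 1.79 and 1.58 CPM in TDEC day 2 and 0.364, 0.668 and 0.910 CPM in TDECs, lower in TDECs than on day 2 (−1.60 ± 0.40, adjusted p = 0.0048). Col26a1 stood at 5.63, 4.92 and 5.87 CPM in 005 cells, 3.87, 4.38 and 3.82 CPM in TDEC day 2 and 1.28, 1.59 and 2.56 CPM in TDECs (−1.60 ± 0.25 for TDECs against 005, adjusted p = 0.00014).

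Col8a1, a chain of the vessel intima, was uneven on day 2. It had 1, 0 and 0 counts in 005 cells, 29, 19 and 139 counts in TDEC day 2 and 15, 19 and 11 counts in TDECs. TDEC day 2 replicate 3, one of the libraries that stood apart, held most of the day 2 counts. The 187 counts of TDEC day 2 against 1 in 005 cells gave a ratio of 198 (counting interval at 95% confidence, 35.1 to 7858), and the 45 counts of TDECs against 1 a ratio of 53.2 (9.08 to 2148). The fall from day 2 to TDECs (−1.95 ± 0.72, adjusted p = 0.034) was lost without TDEC day 2 replicate 3 (−0.48, adjusted p = 0.29), without each TDEC library in turn (−2.14 to −1.75, adjusted p = 0.071 to 0.11), with DESeq2 (−1.98, adjusted p = 0.074) and with the replicate block (−1.56, adjusted p = 0.056), and these groups overlapped.

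**Figure D4:**
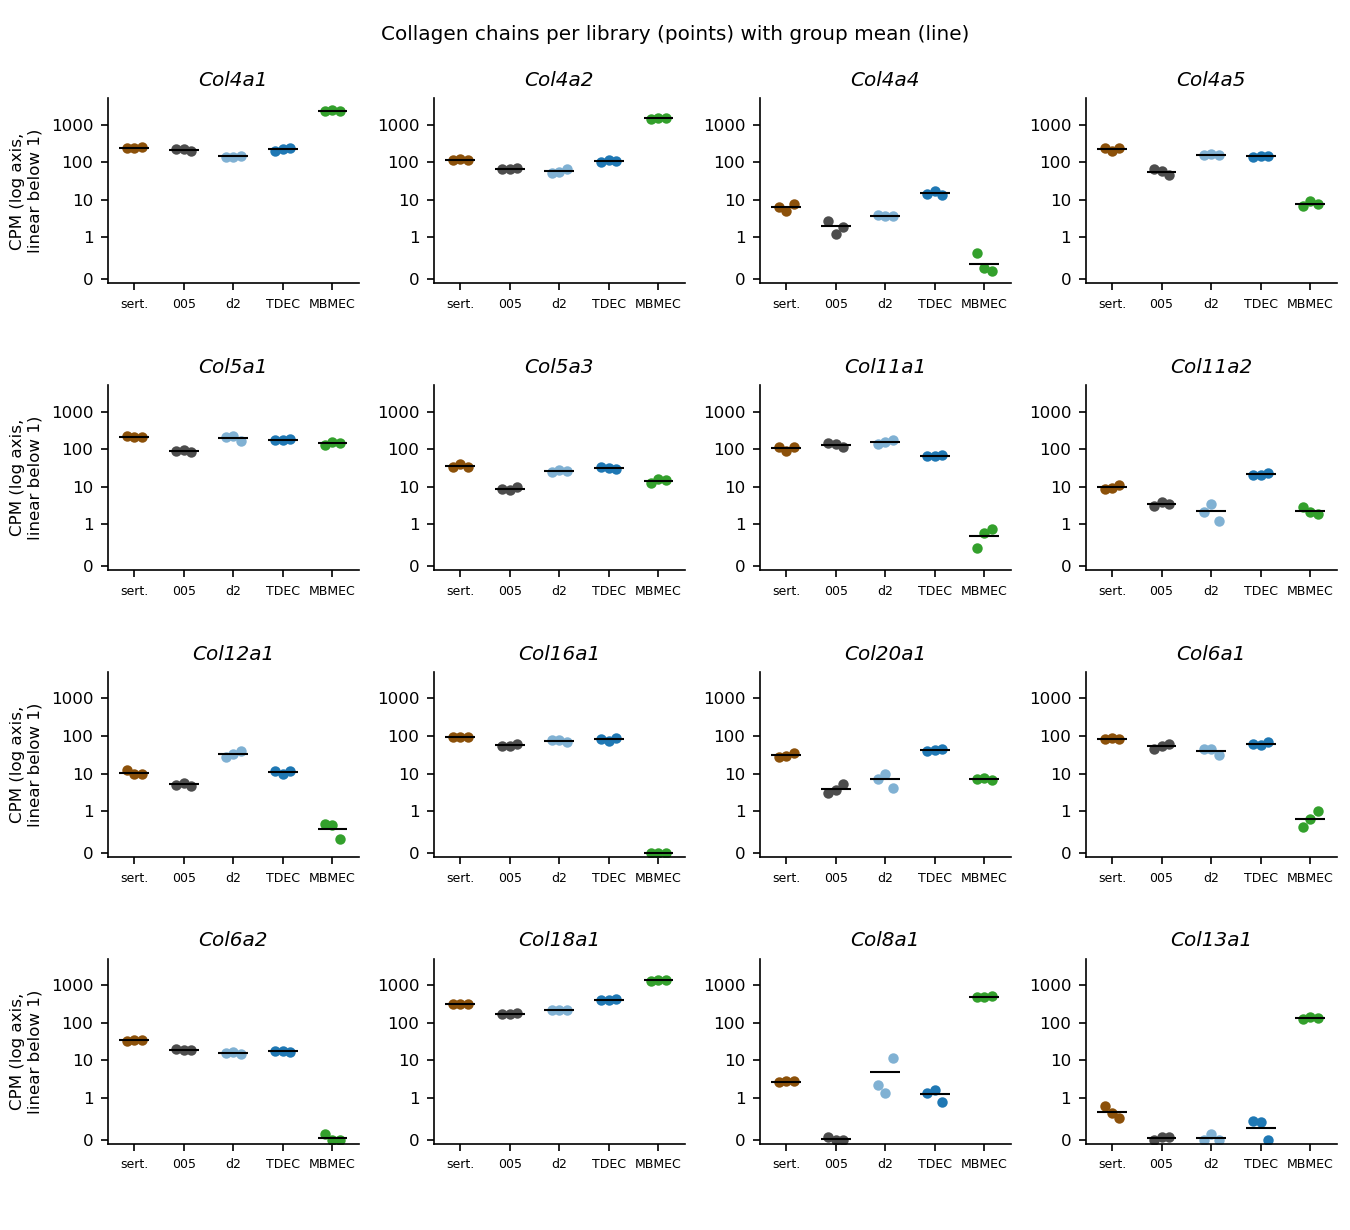
CPM of 16 chains in every library (points) with the mean of each group (line), on an axis that is logarithmic above 1 CPM and linear below. From left to right the groups are sertraline-treated TDECs, 005, TDEC day 2, TDECs and MBMECs. Col4a5 sits higher from day 2 on, Col4a4, Col11a2 and Col20a1 are higher in the TDEC groups than on day 2, and Col16a1 is at 0 in all 3 MBMEC libraries.

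Counted over the class, 6 of 29 tested chains were higher and 4 lower in TDEC day 2 than in 005 cells, at an adjusted p under 0.05 and a fold over 2, where 5.35% of all 15344 tested genes were higher and 4.48% lower. From day 2 to TDECs, 6 of 29 were higher and 9 lower (11.1% and 9.35% of all genes). For TDECs against 005 cells, 11 of 30 were higher and 5 lower (13.1% and 10.4% of all genes). With library totals in place of TMM factors that split was 9 higher and 7 lower, as this scaling moved the median of all genes by −0.13. The median log2 fold change over the 30 chains was 0.23, against −0.01 over all genes. By class, 3 of 5 tested type IV chains, 3 of 9 fibrillar, 2 of 7 FACIT and 3 of 7 other chains were higher in TDECs, and 2 of 9 fibrillar, 1 of 7 FACIT and 2 of 7 other chains were lower. Of type VI, 2 chains were tested and neither passed. Col8a1, with 1 count over the 005 libraries, entered the tests against 005 cells through its TDEC day 2 or TDEC counts. In TDECs against 005 cells, Col4a6, with 11 counts over the 005 libraries, entered through its TDEC counts. Col3a1 and Col28a1, with 10 and 5 counts over the TDEC libraries, entered that test through their 005 counts. So did Col28a1 in TDEC day 2 against 005 cells, with 14, 10 and 9 counts in TDEC day 2. From day 2 to TDECs, Col3a1 and Col25a1, with 10 and 23 counts over the TDEC libraries, entered through their TDEC day 2 counts. Col4a6, with 21 counts over the TDEC day 2 libraries, entered that test through its TDEC counts. The direction of these calls was thus fixed by the filter, and they carry no weight in the counts of called chains. Other values moved with the time course. Mitochondrial reads were 2.16% to 2.70% of counts in 005 cells, 2.1% to 2.35% in TDEC day 2 and 3.48% to 3.60% in TDECs. The 12 fibroblast markers summed to 126 to 139, 72.2 to 74.1 and 45.0 to 49.1 CPM in the same order, with Dcn and Lum under 1 CPM throughout and 5, 5 and 4 markers at 1 CPM or more. Fbln1 and Pdgfra made up most of the sum in 005 cells, with means of 73.6 and 39.8 CPM, and averaged 4.40 and 19.8 CPM in TDECs. Fbln2 went the other way, from a mean of 3.13 CPM in 005 cells to 18.0 CPM in TDECs. The 12 mural markers summed to 82.6 to 87.8, 152 to 176 and 175 to 182 CPM, with Notch3 the most of it and 2, 4 and 3 markers at 1 CPM or more. The part of these in the collagen values was not tested.

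TDECs and MBMECs shared few chains at like levels. Of 28 tested chains, 18 were higher and 6 lower in TDECs than in MBMECs, where 28.1% of all 16135 tested genes were higher and 20.8% lower, and the median over the chains was 2.55 against 0.09 over all genes. Of the higher ones, Col16a1, Col6a2, Col9a1, Col9a2, Col22a1 and Col26a1 had 0 to 2 counts over the MBMEC libraries. They entered the test through their TDEC counts and could only be called higher. For Col2a1, Col4a4, Col4a6, Col6a1, Col11a1 and Col12a1, with 5 to 37 counts there, the MBMEC libraries alone did not pass the filter. These chains too entered the test through their TDEC counts. Likewise, Col13a1 entered it through its MBMEC counts. The counts of called chains and the median over the chains therefore carry no weight. The 6 lower ones were Col4a1, Col4a2, Col18a1, Col8a1, Col13a1 and Col23a1. Col4a1 had 202, 225 and 237 CPM in TDECs, against 2271, 2508 and 2335 CPM in MBMECs (−3.42 ± 0.06, adjusted p = 1e-28). Col4a2 had 103, 112 and 109 CPM in TDECs, against 1387, 1535 and 1473 CPM in MBMECs (−3.76 ± 0.05, adjusted p = 3e-30). Col18a1 had 412, 395 and 429 CPM in TDECs, against 1297, 1371 and 1329 CPM in MBMECs (−1.69 ± 0.05, adjusted p = 1.1e-23).

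MBMECs also carried 3 chains that the TDECs had at low levels. Col8a1 had 1.37, 1.59 and 0.910 CPM in TDECs, against 488, 487 and 502 CPM in MBMECs (−8.57 ± 0.09, adjusted p = 1e-32). Col13a1, a transmembrane collagen of cell adhesion sites, had 0.456, 0.418 and 0 CPM in TDECs, against 128, 144 and 131 CPM in MBMECs (−8.83 ± 0.17, adjusted p = 2.6e-27). Col23a1, another transmembrane collagen, had 2.73, 3.76 and 3.31 CPM in TDECs, against 48.1, 42.4 and 54.0 CPM in MBMECs (−3.87 ± 0.13, adjusted p = 2.3e-21). The ranges of each of these chains were far apart between the groups.

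The FACIT and type VI chains given here were read more in TDECs than in MBMECs, apart from Col6a3. Of those tested, Col16a1, Col6a2, Col9a1, Col9a2 and Col22a1 had 0 to 2 counts over the MBMEC libraries, Col12a1 had 26 and Col6a1 had 37. For all of these the MBMEC libraries alone did not pass the filter, and they entered the test through their TDEC counts. A count of called chains over these classes therefore carries no weight. Col16a1 had 933, 902 and 1074 counts in TDECs and none in any MBMEC library, which makes it at least 1255-fold higher in TDECs when the MBMEC libraries together are set to a floor of 3 counts. Col6a2 had 608 counts over the TDEC libraries and 2 over the MBMEC libraries, a ratio of 393 (counting interval 108 to 3255). Col6a1 had 57.6 to 66.8 CPM in TDECs and 0.630 to 1.03 CPM in MBMECs (6.23 ± 0.14, adjusted p = 2.2e-25). Col12a1 (4.25 ± 0.24, adjusted p = 9.3e-16), Col9a3 (2.56 ± 0.19, adjusted p = 2.8e-13) and Col20a1 (2.55 ± 0.10, adjusted p = 1.2e-19) were higher as well. Col9a1, with 36 counts in TDECs and 0 in MBMECs, was at least 15.5-fold higher in TDECs, and Col9a2, with 49 counts in TDECs and 0 in MBMECs, at least 21.1-fold. Col22a1 had 37 counts in TDECs and 2 in MBMECs, a ratio of 23.9 (6.17 to 205). Col6a3 ran the other way at low counts, with 2 over the TDEC libraries and 29 over the MBMEC libraries, and was not tested in edgeR after the filter. DESeq2 called it lower in TDECs (−3.46 ± 1.34, adjusted p = 0.016), as did edgeR with a filter of 1 count (−3.31 ± 0.89, adjusted p = 0.00045).

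Fibrillar chains divided between shared and separate. Col5a1 was close, at 171, 179 and 189 CPM in TDECs and 129, 159 and 144 CPM in MBMECs (0.32 ± 0.06, adjusted p = 1.9e-05, under 2-fold). Col5a3 was 1.14 ± 0.10 higher in TDECs (adjusted p = 1.3e-11), whereas Col5a2 had 5.76 to 7.28 CPM in TDECs and 11.8 to 13.2 CPM in MBMECs (−0.98 ± 0.14, adjusted p = 2.4e-07, just under 2-fold). Col11a1 had 65.3, 66.2 and 70.7 CPM in TDECs, against 0.441, 0.803 and 0.896 CPM in MBMECs (6.56 ± 0.14, adjusted p = 5.4e-26). Col11a2 was 3.19 ± 0.15 higher in TDECs (adjusted p = 2.4e-17) and Col2a1 3.95 ± 0.56 higher (adjusted p = 2.5e-07). For Col11a1 and Col2a1, with 32 and 5 counts over the MBMEC libraries, those libraries alone did not pass the filter. Col27a1, at 3.01 to 4.88 CPM in TDECs and 4.48 to 5.48 CPM in MBMECs, did not pass the test (−0.32 ± 0.20, adjusted p = 0.14), and Col1a1 and Col3a1 were at or under 1.25 CPM in both. In type IV, Col4a5, Col4a4 and Col4a6 ran opposite to Col4a1 and Col4a2. Col4a5 had 140, 150 and 146 CPM in TDECs, against 6.67, 9.30 and 7.72 CPM in MBMECs (4.21 ± 0.08, adjusted p = 7.8e-27). Col4a4 was 5.30 ± 0.25 higher in TDECs (adjusted p = 1.4e-17) and Col4a6 2.40 ± 0.47 higher (adjusted p = 3e-05). Col4a4 and Col4a6, with 17 and 11 counts over the MBMEC libraries, entered the test through their TDEC counts and could only be called higher. Col7a1 was also higher in TDECs (2.38 ± 0.14, adjusted p = 2.4e-15), and Col26a1, with 64 counts in TDECs and 0 in MBMECs, was at least 27.6-fold higher. Mural markers summed to 175 to 182 CPM in TDECs and 6.36 to 8.03 CPM in MBMECs, most of it Notch3 in TDECs (161 to 168 CPM, against 0.756 to 0.870 CPM in MBMECs), and their part in these differences was not tested.

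**Figure D5:**
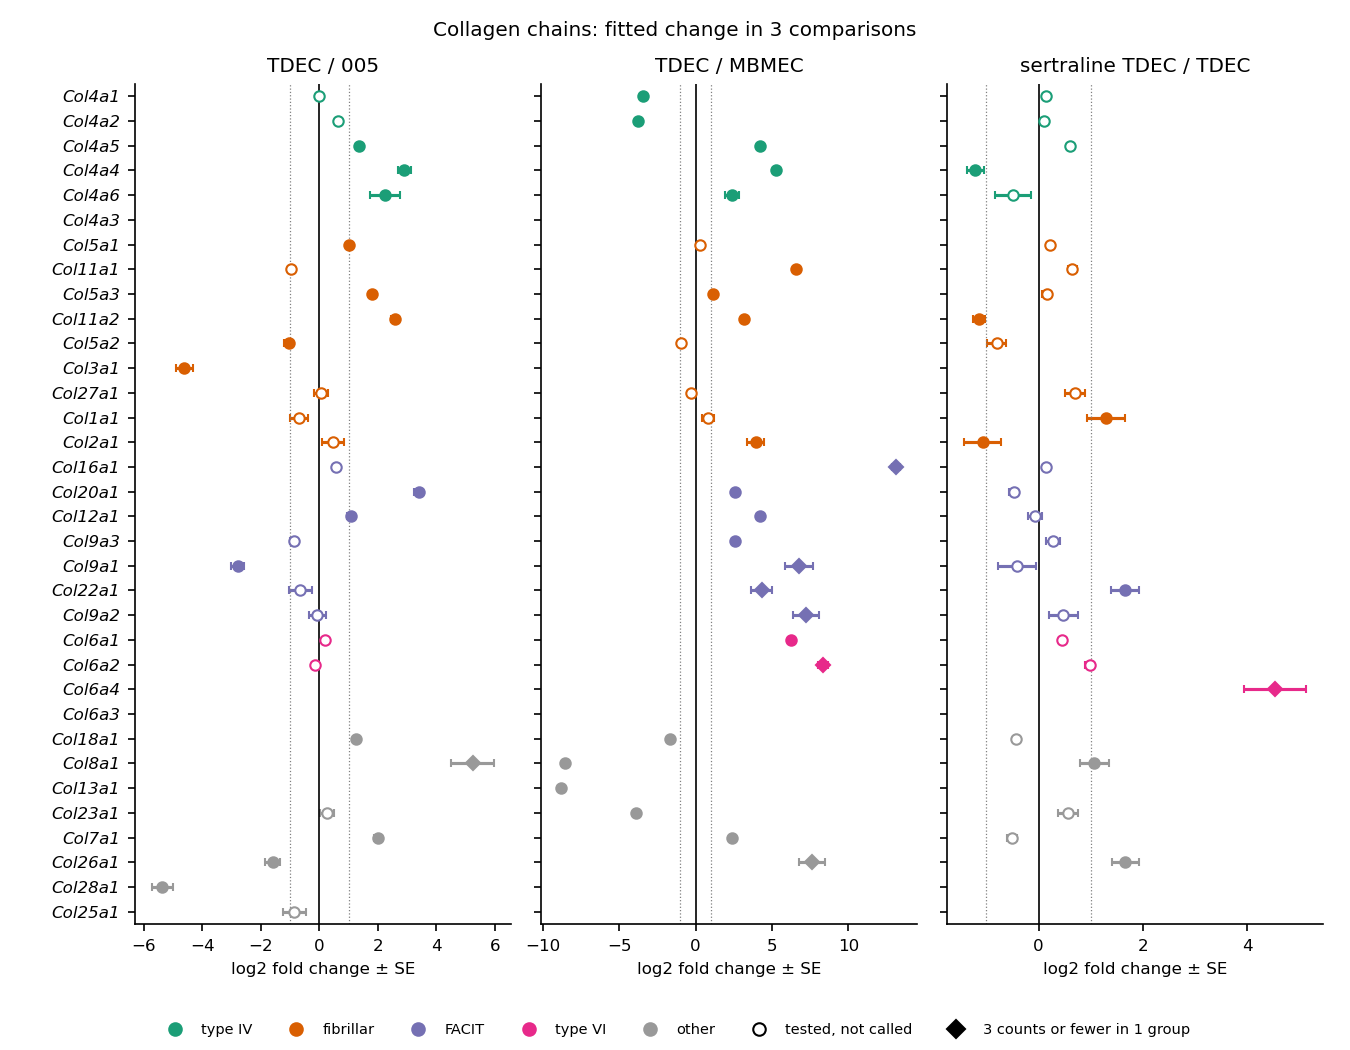
Log2 fold change with its SE for every tested chain in TDECs over 005, TDECs over MBMECs and sertraline-treated TDECs over TDECs (horizontal scales differ). Filled symbols passed both thresholds, open ones did not, dotted lines mark a fold of 2, and diamonds are chains with 3 counts or fewer in 1 group, whose fitted value depends on the prior count. In the middle panel Col11a1 (6.56) and Col4a5 (4.21) lie right of 0, while Col4a1 (−3.42) and Col4a2 (−3.76) lie left.

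The 005 cells were also set against MBMECs. This comparison shares its MBMEC libraries with that of TDECs, and values are given side by side only. Of 30 tested chains, 17 were higher and 6 lower in 005 cells (25.3% and 18.7% of all 15992 tested genes). Col6a2, Col9a1, Col9a2, Col16a1, Col22a1, Col25a1, Col26a1 and Col28a1 had 0 to 2 counts over the MBMEC libraries. They entered the test through their 005 counts, and Col8a1 and Col13a1 through their MBMEC counts. Col1a1, Col2a1, Col3a1, Col4a4, Col6a1, Col11a1 and Col12a1, with 5 to 37 counts over the MBMEC libraries, also entered it through their 005 counts. The counts of called chains therefore carry no weight. Col4a1 was −3.44 ± 0.07 and Col4a2 −4.43 ± 0.07 (adjusted p = 3e-13 and 4.3e-14), beside −3.42 and −3.76 for TDECs. Col18a1 was −2.96 ± 0.06 (adjusted p = 4.6e-13), beside −1.69 for TDECs. Col5a1 was −0.71 ± 0.09 (adjusted p = 8e-06), beside 0.32. Col8a1 had 1 count over the 005 libraries and 22306 over the MBMEC libraries, and Col13a1 had 2 over the 005 libraries and 6087 over the MBMEC libraries.

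A few chains differed by more than 2-fold between sertraline-treated and untreated TDECs. Of 28 tested chains, 5 were higher and 3 lower in sertraline-treated TDECs than in TDECs, where 1.82% of all 15540 tested genes were higher and 3.26% lower. A further 11 had an adjusted p under 0.05 with a change under 2-fold, as had 30.2% of all genes. Mitochondrial reads were 2.47% to 2.62% of counts in sertraline-treated TDECs and 3.48% to 3.60% in TDECs, and their part was not tested. Of type VI, 1 of 3 tested chains was called higher, namely Col6a4, and Col6a1 and Col6a2 passed the adjusted p but not 2-fold. Col6a4 entered the test through its sertraline counts and could only be called higher. It therefore carries no weight in either count of called chains. Col6a2 had 33.4, 35.8 and 34.3 CPM in sertraline-treated TDECs, against 18.2, 17.5 and 16.4 CPM in TDECs (0.98 ± 0.09, adjusted p = 5.1e-07, just under 2-fold). Col6a1 had 85.4, 87.7 and 82.4 CPM, against 61.0, 57.6 and 66.8 CPM in TDECs (0.45 ± 0.07, adjusted p = 5.6e-05). Col6a4, a chain thought able to stand in for the third type VI chain in mice, had 23, 18 and 23 counts with sertraline, against 0, 1 and 1 counts in TDECs, a ratio of 27.1 (counting interval 7.2 to 229). None of these chains overlapped between the groups.

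Col11a2 and Col4a4, which had risen late in the time course, were lower with the drug. Col11a2 had 8.91, 9.05 and 11.1 CPM in sertraline-treated TDECs, against 20.5, 20.8 and 22.5 CPM in TDECs (−1.15 ± 0.11, adjusted p = 1.6e-06). Col4a4 had 6.66, 5.00 and 7.93 CPM with sertraline, against 14.1, 17.0 and 13.9 CPM in TDECs (−1.21 ± 0.16, adjusted p = 2.1e-05). These TDEC libraries also served in the comparisons with 005 and TDEC day 2, so a shared deviation of theirs would appear in each. Col20a1 (−0.48 ± 0.09, adjusted p = 0.00062), Col7a1 (−0.51 ± 0.10, adjusted p = 0.001) and Col18a1 (−0.43 ± 0.05, adjusted p = 8e-06) were lower by less than 2-fold. Col11a1 had 115, 87.2 and 117 CPM with sertraline, against 65.3, 66.2 and 70.7 CPM in TDECs (0.65 ± 0.09, adjusted p = 4e-05), and Col4a5 had 236, 194 and 241 CPM, against 140, 150 and 146 CPM (0.61 ± 0.07, adjusted p = 8.6e-06). In both, sertraline replicate 2 was the lowest treated library. Col22a1 (1.66 ± 0.26, adjusted p = 0.00014) and Col26a1 (1.67 ± 0.26, adjusted p = 0.00014) rose. Col22a1 had 3.13 to 3.76 CPM with sertraline and 0.993 to 1.09 CPM in TDECs, and Col26a1 5.00 to 7.46 CPM with sertraline and 1.28 to 2.56 CPM in TDECs.

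Calls at the lowest counts were less stable. Col1a1 had 60, 28 and 26 counts with sertraline, against 10, 15 and 14 in TDECs (1.29 ± 0.36, adjusted p = 0.011), and without sertraline replicate 1 the call was lost (0.81, adjusted p = 0.09). The fibroblast markers summed to 55.9 to 61.0 CPM with sertraline and 45.0 to 49.1 CPM in TDECs. Most of this difference was Fbln1, at 13.2 to 16.5 CPM with sertraline and 3.76 to 4.74 CPM in TDECs. Dcn stood at 0.946 to 2.68 CPM with sertraline and 0 to 0.496 CPM in TDECs. Fbln2, Mmp2 and Mfap5 had lower means with sertraline than in TDECs. The part of these markers was not tested. Col8a1 had 2.68 to 2.76 CPM with sertraline and 0.910 to 1.59 CPM in TDECs (1.07 ± 0.28, adjusted p = 0.0069), and was 0.87 without TDEC replicate 3 and not called in one fit over all 15 libraries (adjusted p = 0.24). Col2a1 had 0.941, 0.652 and 1.018 CPM with sertraline, against 2.37, 2.00 and 1.16 CPM in TDECs (−1.08 ± 0.35, adjusted p = 0.026), a call lost without TDEC replicate 1 (−0.86, adjusted p = 0.13), without TDEC replicate 2 (−1.0, adjusted p = 0.089), without sertraline replicate 1 (−1.13, adjusted p = 0.057) and without sertraline replicate 2 (−0.90, adjusted p = 0.069), as well as with DESeq2 (adjusted p = 0.11) and in one fit over all 15 libraries (adjusted p = 0.071). For Col2a1, the sertraline libraries alone (13, 9 and 14 counts) did not pass the filter. It entered the test with its TDEC counts, and its call adds no weight to the count of lower chains. Col4a1 (0.14 ± 0.06, adjusted p = 0.072), Col4a2 (0.11 ± 0.06, adjusted p = 0.15), Col12a1 (−0.07 ± 0.14, adjusted p = 0.73) and Col16a1 (0.15 ± 0.07, adjusted p = 0.092) did not pass the test.

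Enzymes and chaperones that process collagen were higher in TDECs than in 005 cells more often than lower. Of 32 tested genes of a list of 37, 15 were higher and 1 lower (13.1% and 10.4% of all genes). P4ha3 and Loxl4, with 2 and 21 counts over the 005 libraries, entered through their TDEC counts and could only be called higher. Adamts3, with 16 counts over the TDEC libraries, entered through its 005 counts and could only be called lower. These calls carry no weight in the counts of called genes. P4ha1, a prolyl 4-hydroxylase subunit, averaged 713.9 ± 16.9 CPM in TDECs and 96.9 ± 12.5 CPM in 005 cells (2.87 ± 0.09, adjusted p = 4.9e-11), and its partner P4hb 1420 ± 52.9 CPM in TDECs and 439.7 ± 9.47 CPM in 005 cells (1.68 ± 0.05, adjusted p = 7.1e-11). Loxl2, a lysyl oxidase that cross-links type IV collagen, averaged 125.5 ± 6.43 CPM in TDECs and 7.14 ± 1.20 CPM in 005 cells (4.12 ± 0.10, adjusted p = 1.4e-11), most of it by day 2 (109.8 ± 12.7 CPM, adjusted p = 2.8e-08). Adamts14, which trims procollagen, was 2.14 ± 0.09 higher (adjusted p = 7.6e-10), and Adamts3 was the lower one (−1.61 ± 0.44, adjusted p = 0.0061). In TDEC day 2 against 005 cells 10 of 31 were higher and 1 lower (5.35% and 4.48% of all genes), with Plod2, a lysyl hydroxylase, at 298.2 ± 30.3 CPM on day 2 and 104.8 ± 7.35 CPM in 005 cells (1.49 ± 0.09, adjusted p = 7.7e-07) and Colgalt2, which adds galactose, the lower one (−1.04 ± 0.11, adjusted p = 2.4e-05). From day 2 to TDECs 7 of 32 were higher (11.1% of all genes), among them P4ha2 (2.02 ± 0.10, adjusted p = 2.3e-08), P3h3 and P3h4, and Pcolce was lower (−1.12 ± 0.10, adjusted p = 3.4e-06). P4ha3 in TDEC day 2 against 005, and Loxl4 (17 counts over the TDEC day 2 libraries) from day 2 to TDECs, likewise could only be called higher.

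Serpinh1, the collagen-specific chaperone HSP47, stood apart from the hydroxylases. It averaged 29.7 ± 1.03 CPM in TDECs and 666.6 ± 12 CPM in MBMECs (−4.49 ± 0.06, adjusted p = 1.5e-31), next to 31.8 CPM in TDEC day 2 and 9.02 ± 1.68 CPM in 005 cells. With sertraline it averaged 97.8 ± 3.99 CPM, against 29.7 ± 1.03 CPM in TDECs (1.71 ± 0.07, adjusted p = 2.7e-11), and it was, with the low Adamts2 (1.03 ± 0.39, adjusted p = 0.049), one of 2 called higher among 33 tested genes of this list under the drug, where 1.82% of all genes were higher. Adamts2, with 23 counts over the TDEC libraries, entered the test through its sertraline counts, so its call carries no weight in that count. DESeq2 did not call Adamts2 (1.05 ± 0.59, adjusted p = 0.19). No gene of the list was called lower in edgeR or DESeq2 (3.26% of all genes in edgeR). At an unadjusted p under 0.05 in edgeR, 14 were higher and 9 lower. For TDECs against MBMECs, 15 of 33 were higher (28.1% of all genes), led by Adamts14, Loxl2, P4ha1 and Plod2, and 8 lower (20.8%), led by Serpinh1, Pxdn, the peroxidase that cross-links type IV collagen (−1.99 ± 0.05, adjusted p = 5.2e-24), Sparc and Fkbp10. For 005 cells against MBMECs, 7 of 32 were higher and 11 lower (25.3% and 18.7% of all genes). Adamts14 and Colgalt2, with 1 and 0 counts over the MBMEC libraries, entered both comparisons with MBMECs through the glioma-derived cells. Tll1, with 0 counts over the TDEC libraries, entered that of TDECs through its MBMEC counts. The counts of called genes in these 2 comparisons therefore carry no weight.

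Several collagen receptors were read more in TDECs than in MBMECs. Of 10 tested receptors, 7 were higher and 1 lower in TDECs than in MBMECs (28.1% and 20.8% of all genes). Of the higher ones, Mrc2 and Adgrg6 were barely read in MBMECs and entered the test through their TDEC counts. They could only be called higher, so the count of called receptors carries no weight. Mrc2, an endocytic receptor that takes up collagen, averaged 582.9 ± 9.02 CPM in TDECs and 0.155 ± 0.141 CPM in MBMECs (11.80 ± 0.12, adjusted p = 6.1e-33). The discoidin domain receptors Ddr2 (559.3 ± 14.3 CPM in TDECs, 9.04 ± 1.24 CPM in MBMECs) and Ddr1 (283.3 ± 16.1 CPM in TDECs, 5.11 ± 0.43 CPM in MBMECs) followed it, as did Adgrg6, an adhesion receptor that binds type IV collagen (91.4 ± 4.0 CPM in TDECs, 0.284 ± 0.202 CPM in MBMECs). Adgrg1 was lower in TDECs (−1.38 ± 0.05, adjusted p = 2e-20). Against 005 cells, 3 of 10 were higher in TDECs (13.1% of all genes), namely Mrc2 (2.1 ± 0.06, adjusted p = 4.9e-11), Adgrg6 (1.70 ± 0.08, adjusted p = 1.5e-09) and Itga11 (3.42 ± 0.31, adjusted p = 1.2e-06). Itga11, with 17 counts over the 005 libraries, entered the test through its TDEC counts and could only be called higher. It therefore carries no weight in that count. The integrin chains Itga1 and Itga2 were higher in TDEC day 2 than in 005 cells (1.48 ± 0.17, adjusted p = 4.8e-05, and 1.42 ± 0.17, adjusted p = 8.5e-05), and Itga1 was lower again in TDECs than on day 2 (−1.24 ± 0.14, adjusted p = 1.6e-05). Under sertraline 0 of 10 receptors passed both thresholds in edgeR and in DESeq2, and 3 had an unadjusted p under 0.05 in edgeR, all with lower levels and changes under 2-fold.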

How the data were processed

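Libraries were made from poly(A) RNA with a directional kit. The deposited values are raw read counts per gene: per the submitters' notes the authors trimmed reads with Trimmomatic 0.38, aligned them to mm10 with HISAT2 2.1.0 and counted them with featureCounts 1.6.3; the strand setting and annotation release are not given in the sources used here. All 15 columns were mapped to groups by title. In R 4.3.3, edgeR 4.0.16 compared pairs of groups (6 libraries each) by the quasi-likelihood test, with TMM factors, filterByExpr at a minimum count of 10 and Benjamini-Hochberg adjustment over all genes tested. A gene was called at an adjusted p under 0.05 with a fold over 2, the thresholds of the study. SE is the absolute log2 fold change divided by the root of F. The fit was tested on simulated counts. CPM use TMM over 15 libraries, and exon length is the union of GENCODE M21 exons. Upstream sequences are RefSeq's (GRCm38.p6).

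Every chain with at least 10 counts in a library is named, with values per library, in at least one comparison, for those at 10 CPM or called at 1 CPM or more, and ranges elsewhere. Of the maturation and receptor lists, up to 4 called genes per direction and comparison, by smallest p, are named, besides Serpinh1 and Plod2 in further comparisons. Members, lists and tests were chosen with earlier results of these data known. Bounds use a floor of 3 counts over a group, hold for that floor only and leave out the spread between libraries. Intervals cover counting error only. Groups of 3 were not tested for single outlying libraries. Same-numbered libraries did not deviate together (correlations of −0.084 to 0.076), so replicates were not paired.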

Additional observations from a re-analysis of the deposited data

How the results depend on the processing

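Alternatives were RLE size factors, library totals, DESeq2 1.42.0, a filter of 1 count, one fit over all 15 libraries, the replicate number as a block and leaving out each library in turn. Leaving out the libraries that stood apart was chosen after seeing the data. All counts of called chains stayed within 1.5 times of their main value in each alternative, and no chain called in the main fit turned its direction.

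Without one library, the chains higher and lower numbered 5 to 7 and 3 to 6 in TDEC day 2 against 005, 5 to 7 and 7 to 9 in TDECs against TDEC day 2, 10 to 11 and 4 to 7 in TDECs against 005, 18 to 19 and 6 to 7 in TDECs against MBMECs, 4 to 6 and 2 to 3 under sertraline, and 17 and 6 to 7 in 005 against MBMECs. With the replicate block they numbered 6 and 4, 6 and 8, 11 and 5, 18 and 6, 5 and 3, and 17 and 6 in that order. Without the libraries that stood apart they numbered 7 and 5, 6 and 8, 10 and 6, 5 and 2 under sertraline, and 17 and 7 in 005 against MBMECs, and Col20a1 became higher in TDEC day 2 than in 005 (1.36, adjusted p = 1.5e-06). Library totals moved the median of all genes by −0.13 in TDECs against 005 and by 0.21 in 005 against MBMECs, and with them Col5a1 (0.88) and Col12a1 (0.95) were no longer called against 005. With DESeq2 and with the filter of 1 count, Col5a1 lay just under 2-fold there (0.99 with that filter). Under sertraline, Col6a2 passed 2-fold with library totals (1.05). Col4a6 in TDECs against TDEC day 2 (1.28, adjusted p = 0.032) was lost with DESeq2 (adjusted p = 0.11) and without TDEC replicate 1 (0.99, adjusted p = 0.14). The causes were not tested.

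Low counts in most libraries limit what can be read from Col2a1, Col4a3, Col4a6, Col6a3, Col6a4 and Col25a1.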
